A study of Arabidopsis thaliana with 29 samples.

Results

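The beta carbonic anhydrases of Arabidopsis thaliana are a family of 6 nuclear genes, CA1 to CA6, and all 6 were found among the 59999 loci of the count table. The members were selected by locus identifier as a complete family. The family was chosen with its counts in fusca and WT seedlings already known, so the values of that comparison describe the members and carry no p-value here. Whole seedlings of 3 groups were sampled at 7 days, all after 3 days of stratification in the dark at 4 °C and then under white light of 100 µmol per m2 and s with 16 h of light and 8 h of dark, on Murashige and Skoog medium with a sucrose label of 0.01. The fusca group had the genotype 2x35S::GFP-HY5/hy5 and showed the fusca phenotype, a name used for dark-pigmented seedlings with constitutively light-type development. The GFP-HY5 group had the same genotype with no such phenotype recorded. WT seedlings carried neither the construct nor the hy5 allele, as far as the labels say. In the construct, HY5, a bZIP transcription factor of light responses, is fused to green fluorescent protein and driven by the 35S promoter, which is active in most plant cells and not limited to those that express HY5 on their own. The labels do not say how many independent lines or how many seedlings each sample holds.

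Carbonic anhydrases are zinc enzymes that interconvert CO2 and bicarbonate. Plants have alpha, beta and gamma types, which do not share a fold. In leaves the beta type is among the most abundant soluble proteins. CA1 and CA5 are known as chloroplast enzymes, CA2 and CA3 as cytosolic, CA4 as an enzyme of the plasma membrane and CA6 as mitochondrial. CA1 and CA4 together are needed for the normal closing response of stomata to CO2, and CA1 is also known as a salicylic acid-binding protein. The gene table gives CA3 to CA6 the symbols BCA3 to BCA6.

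The 9 RNA-seq columns held 7 distinct libraries, because the values of the 3 GFP-HY5 columns are the same throughout, which leaves 1 sample in that group. Locus totals were 11860094 to 12545563 counts. Levels are CPM, read counts scaled by library size and by TMM factors, which were 1.11 to 1.26 in fusca, 0.911 in GFP-HY5 and 0.839 to 0.888 in WT. The HY5 locus stood at 149 ± 33.0 CPM in fusca (SD, n = 3), at 77.4 in GFP-HY5 and at 14.1 ± 2.04 in WT (SD, n = 3), where transcripts of the transgene and of the resident allele are not separated. Fusca replicate 2 stood apart in seed storage transcripts. The 9 seed storage markers summed to 205 CPM there, to 0.883 CPM in GFP-HY5 and to at most 4.69 CPM in any WT library. The lowest fusca sum was 2.08 CPM, and the marker CRA1 stood at 0.607, 54.1 and 0.536 CPM in fusca replicates 1, 2 and 3. Of these markers 1 had counts enough to be tested, CRA1 (AT5G44120), with a log2 fold change of 3.44 that was not past the threshold (edgeR, adjusted p = 0.112). Nothing in the labels says that samples of a group came from separate cultures, so the errors measure the spread between these samples, which may be technical.

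CA1 (AT3G01500), the main carbonic anhydrase of the chloroplast stroma, was almost lost from fusca libraries. It stood at 1.28, 6.54 and 5.29 CPM in fusca replicates 1, 2 and 3 and at 5451 CPM in GFP-HY5, against 6295, 6101 and 7795 CPM in the WT libraries in the same order. All fusca libraries lay far below all others, and GFP-HY5 lay below the WT range. In raw reads these are 19, 90 and 79 counts in fusca, 61756 in GFP-HY5 and 69554, 67592 and 77432 in WT. The fusca mean of 4.37 ± 2.75 CPM (SD, n = 3) was 0.0649% of the WT mean of 6730.4 ± 927 CPM (SD, n = 3). The log2 fold change was -10.59 with a standard error of 0.61, the second lowest among 21820 tested loci. The 3 fusca libraries also differed among themselves. On the scale of log2 CPM, the difference from the WT mean was -12.18 in fusca replicate 1, -9.96 in replicate 2 and -10.26 in replicate 3.

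CA5 (AT4G33580), the second chloroplast member, was lower in fusca by much less. Its levels were 29.8, 26.2 and 30.9 CPM in fusca replicates 1, 2 and 3, 67.8 CPM in GFP-HY5 and 67.7, 63 and 66.6 CPM in WT replicates 1, 2 and 3. Every fusca library was below every WT library, and GFP-HY5 lay just above the highest WT library. The means were 28.9 ± 2.46 CPM in fusca and 65.8 ± 2.46 CPM in WT (SD, n = 3 each), which places fusca at 44.0% of WT. The log2 fold change was -1.18 with a standard error of 0.13.

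**Figure D1:**
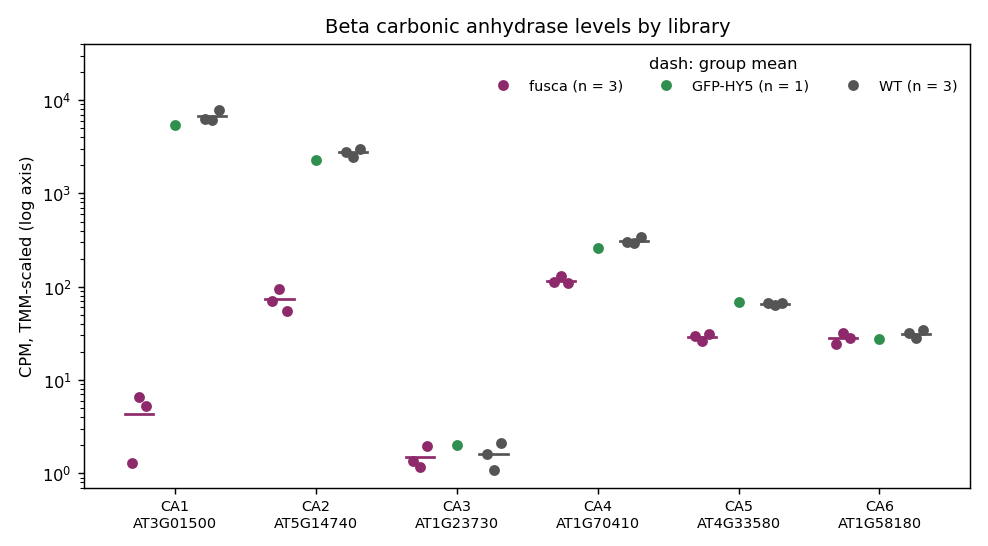
Level of each beta carbonic anhydrase in CPM, read counts scaled by library size and TMM factors, on a log axis. Points are single libraries of fusca, GFP-HY5 and WT, and dashes are group means; fusca points lie below all WT points for CA1, CA2, CA4 and CA5, and the ranges of both groups overlap for CA3 and CA6.

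Of the cytosolic enzymes, CA2 (AT5G14740) was strongly lower in fusca, and CA3 had few counts and overlapping groups. CA2 stood at 71.1, 95.3 and 54.3 CPM in fusca replicates 1, 2 and 3, at 2278 CPM in GFP-HY5 and at 2789, 2486 and 3029 CPM in WT replicates 1, 2 and 3. The highest fusca library was far under the lowest WT library. The fusca mean of 73.6 ± 20.6 CPM was 2.66% of the WT mean of 2768 ± 272 CPM (SD, n = 3 each). The log2 fold change was -5.23 with a standard error of 0.28, the 103rd lowest of the 21820.

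CA3 (AT1G23730) was scarcely expressed in any library. It had 20, 16 and 29 counts in fusca replicates 1, 2 and 3, 23 in the GFP-HY5 library and 18, 12 and 21 in the WT libraries in the same order, or 1.08 to 2.11 CPM over all libraries. The groups overlapped fully. Its log2 fold change was -0.10 with a standard error of 0.35. With so few counts, a difference well above the size of that error could also go undetected. The sign turned with the scaling, to 0.35 with library size only and to 0.04 with upper-quartile factors.

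CA4 (AT1G70410), the plasma-membrane enzyme, was lower in fusca. It stood at 111, 129 and 109 CPM in fusca replicates 1, 2 and 3, at 259 CPM in GFP-HY5 and at 303, 293 and 342 CPM in WT replicates 1, 2 and 3. Every fusca library lay below every WT library. The means were 116 ± 11.0 CPM in fusca and 313 ± 26.1 CPM in WT (SD, n = 3 each), so fusca held 37.2% of the WT level. The log2 fold change was -1.43 with a standard error of 0.15.

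CA6 (AT1G58180), the mitochondrial enzyme, stood at 24.6, 31.7 and 27.9 CPM in fusca replicates 1, 2 and 3, at 27.8 CPM in GFP-HY5 and at 32.2, 27.9 and 34.3 CPM in WT replicates 1, 2 and 3. The groups overlapped, and GFP-HY5 lay inside the fusca range. The means were 28.1 ± 3.56 CPM in fusca and 31.5 ± 3.28 CPM in WT (SD, n = 3 each), a difference within the spread of the libraries. The log2 fold change was -0.17 with a standard error of 0.15, and with library size only it was 0.28.

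All 6 members passed the filter on low counts. By the fit across all loci (edgeR quasi-likelihood test, threshold of 0.05 after Benjamini-Hochberg adjustment), 4 of the 6 were past the threshold, all 4 lower in fusca, and 0 were higher. Of all tested loci 35.1% were past it, 18.4% lower and 16.7% higher. The fusca and WT ranges did not overlap at the same 4 members, where 49.8% of all loci showed no overlap. Since this comparison chose the family, nothing is read from these counts. The median log2 fold change was -1.31 over the 6 members and 0.05 over all tested loci. Without fusca replicate 2, the library with the seed storage transcripts, the count was again 4, and the log2 fold changes were -11.00 for CA1, -5.46 for CA2, -1.51 for CA4 and -1.12 for CA5. In whole seedlings, fewer cells of a type and less RNA per cell cannot be told apart.

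**Figure D2:**
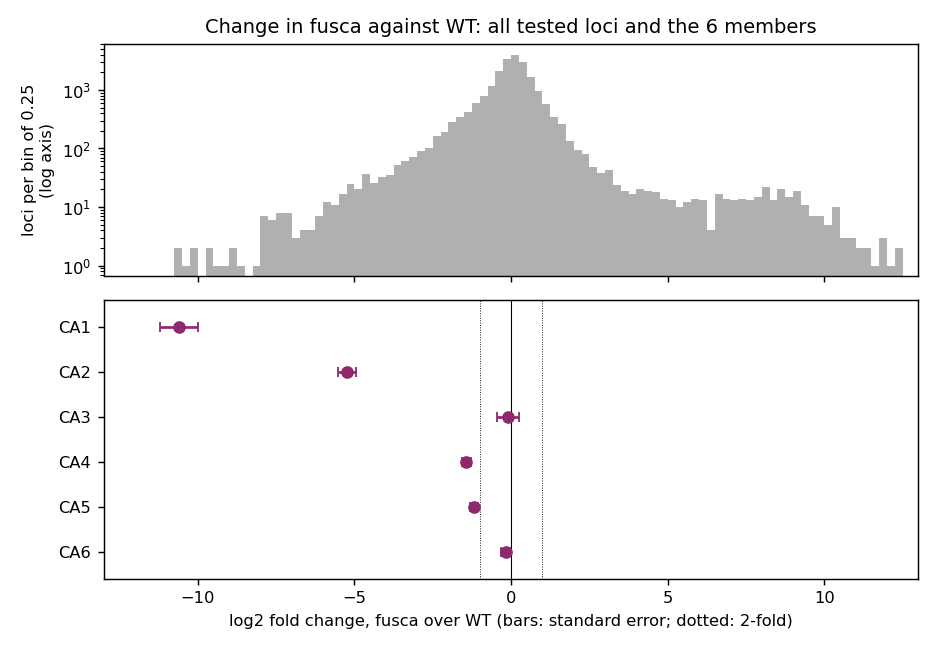
Top, number of loci per bin of log2 fold change in fusca over WT (log axis) for all 21820 tested loci; bottom, log2 fold change of the 6 members with standard errors. CA1 at -10.59 lies at the far left end of the distribution, CA2 at -5.23 in its left tail, CA4 and CA5 just beyond 2-fold, and CA3 and CA6 near 0.

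The family as a whole shrank in fusca and its make-up turned round. The 6 genes together held 0.0298 ± 0.00194% of locus counts in fusca (SD, n = 3), 0.736% in GFP-HY5 (Wilson 95% interval 0.731 to 0.740%) and 0.859 ± 0.0773% in WT (SD, n = 3). CA1 supplied 1.70 ± 1.01% of the family counts in fusca (SD, n = 3), 67.4% in GFP-HY5 (Wilson 95% interval 67.1 to 67.7%) and 67.8 ± 1.42% in WT (SD, n = 3). CA2 supplied 28.8 ± 4.65% in fusca, 28.2% in GFP-HY5 and 28.0 ± 1.28% in WT, a share that overlapped between groups although its level did not. CA4 became the leading contributor in fusca. It held 46.2 ± 1.52% of the family counts there, 3.20% in GFP-HY5 and 3.16 ± 0.116% in WT. CA5 held 11.6 ± 2.33% in fusca and 0.669 ± 0.0675% in WT, and CA6 11.1 ± 0.984% in fusca and 0.318 ± 0.0187% in WT. The larger shares of CA4 and CA5 stood beside lower CPM in fusca, and that of CA6 beside overlapping CPM.

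**Figure D3:**
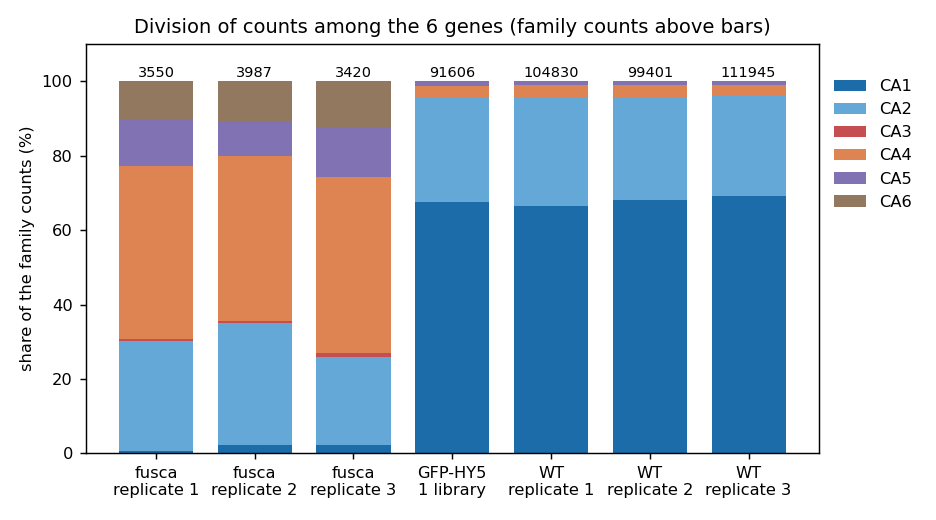
Share of the summed counts of the 6 genes held by each gene (percent, stacked to 100) in every distinct library, with the summed counts above the bars. In fusca CA4 holds the largest share at 44.5 to 47.5%, and in GFP-HY5 and WT CA1 holds 66.3 to 69.2%.

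Levels of different genes were compared per kilobase of gene span, introns included, since the table of gene lengths gives only the span. In fusca the order of CPM per kilobase was CA4 at 25.2 ± 2.38, CA2 at 15.3 ± 4.28, CA6 at 11.4 ± 1.45, CA5 at 8.57 ± 0.730, CA1 at 1.03 ± 0.648 and CA3 at 0.508 ± 0.139 (SD, n = 3). CA2 and CA6 overlapped in fusca, and so did CA1 and CA3, so these pairs do not differ beyond their spread. In WT the order was CA1 at 1588 ± 219, CA2 at 575 ± 56.5, CA4 at 67.8 ± 5.66, CA5 at 19.5 ± 0.730, CA6 at 12.8 ± 1.33 and CA3 at 0.551 ± 0.176 CPM per kilobase (SD, n = 3). The WT ranges of neighbours in this order did not overlap, and the GFP-HY5 library had the WT order. Among 28009 loci with a known span, CA1 ranked 17226 to 20739 from the top in fusca, 27 in GFP-HY5 and 22 to 24 in WT.

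CA1 counts were 0.0180, 0.0687 and 0.0974 times those of CA2 in fusca replicates 1, 2 and 3, 2.39 times in GFP-HY5 and 2.26, 2.45 and 2.57 times in WT replicates 1, 2 and 3. CA2 counts were 0.50 to 0.739 times those of CA4 in fusca, 8.81 times in GFP-HY5 and 8.48 to 9.21 times in WT. The ratio of CA4 to CA5 was 3.52 to 4.93 in fusca, 3.82 in GFP-HY5 and 4.47 to 5.14 in WT, with overlap between fusca and WT, and GFP-HY5 lay below the WT range and inside the fusca range. The ratios of CA1 to CA2 and of CA2 to CA4 did not overlap between fusca and WT, and GFP-HY5 lay inside the WT range of both.

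In seedlings of the transgenic line without the phenotype the members stood near the WT levels. This comparison rests on 1 GFP-HY5 library and has no test. None of the 6 members differed from the WT mean by 2-fold (0 of 6), where 3.07% of all tested loci did. On the scale of log2 CPM the GFP-HY5 library lay at -0.30 from the WT mean for CA1, -0.28 for CA2, -0.27 for CA4, -0.17 for CA6, 0.04 for CA5 and 0.35 for CA3. The value was outside the WT range at 5 of the 6 members, below it for CA1, CA2, CA4 and CA6 and just above it for CA5. Of all loci 58.3% lay outside the WT range, so a position outside it is common. In percent of the WT mean, GFP-HY5 held 81.0% for CA1, 82.3% for CA2 and 82.7% for CA4.

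Set against GFP-HY5, which shares the genotype with fusca, the fusca mean was lower by at least 2-fold at 4 of the 6 members, where 11.7% of all tested loci were. The differences of log2 CPM were -10.51 for CA1, -4.99 for CA2, -1.23 for CA5, -1.16 for CA4, -0.44 for CA3 and 0.01 for CA6. This comparison again has 1 GFP-HY5 library and no test, and it shares its libraries with the comparisons of fusca and of GFP-HY5 with WT. Its fusca values were known when the family was chosen, so nothing is read from the count of 4. With library size as the only scale, CA4 and CA5 lay short of 2-fold, at -0.78 and -0.85. With upper-quartile factors CA4 lay just short of 2-fold at -0.999, and CA5 stayed past it at -1.07. CA1 and CA2 stayed past it under both.

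Genes of related function were taken from 6 lists with 54 loci, of which 48 had counts enough to be tested in fusca against WT. Of these 48, 24 were past the threshold, 7 higher and 17 lower, which is 50% where 35.1% of all tested loci were. Among all tested loci 16.7% were higher and 18.4% lower, and the counts of each list stand beside these shares. The count was 36 without fusca replicate 2, and 18 and 17 without WT replicates 2 and 3. The calls over all loci moved the same way, with 10895 of 22128 past the threshold without fusca replicate 2. Without WT replicates 2 and 3 they were 5632 of 22294 and 5758 of 22320, against 7651 of 21820 with all libraries. The lists were written with earlier results of these data known.

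In the alpha and gamma carbonic anhydrase families 2 of 8 tested loci were past the threshold, where 35.1% of all tested loci were. Of the 8 alpha carbonic anhydrases 3 could be tested, 1 of them lower and 0 higher, with a median log2 fold change of -0.42. That 1 was ACA1 (AT3G52720), an alpha enzyme of the chloroplast, at 19.4, 37.9 and 28.5 CPM in fusca and 69.4, 71.1 and 71.6 CPM in WT replicates 1, 2 and 3. Its log2 fold change was -1.31 (standard error 0.22, edgeR adjusted p = 0.00132). ACA5 and ACA6 had 0 counts in every library. The 5 gamma carbonic anhydrases, subunits of mitochondrial complex I, had a median of 0.03, with 1 higher, 0 lower and 4 not past the threshold. Gamma CAL2 (AT3G48680) was at 56.4, 80.4 and 50.6 CPM in fusca and 40.5, 39.1 and 41.1 CPM in WT, above WT in 3 of 3 libraries. It rose by 0.64 on the log2 scale (edgeR adjusted p = 0.0231), a call lost without any single WT library, with edgeR adjusted p from 0.0545 to 0.0712. Without fusca replicate 2 its log2 fold change was 0.41, still past the threshold (edgeR adjusted p = 0.0039). The log2 fold changes of gamma CA1, CA2, CA3 and CAL1 were -0.31, -0.14, 0.05 and 0.03 (edgeR adjusted p = 0.153, 0.552, 0.861 and 0.893). Without fusca replicate 2 gamma CA1 and gamma CA2 were past the threshold, at -0.44 and -0.30, and with library size only gamma CA3 and CAL1 were, at 0.48 and 0.47.

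Rubisco is the enzyme that fixes CO2. All 5 loci of the small subunit of Rubisco and of Rubisco activase were lower in fusca, 5 of 5 past the threshold, with a median log2 fold change of -5.89. RBCS2B (AT5G38420) changed by -8.22, RBCS3B (AT5G38410) by -7.16, RBCS1B (AT5G38430) by -5.89, the activase RCA (AT2G39730) by -4.61 and RBCS1A (AT1G67090) by -4.51 (largest edgeR adjusted p = 2.9e-05). Summed, the 5 loci stood at 1149 to 2346 CPM in fusca, 48814 CPM in GFP-HY5 and 56772 to 68382 CPM in WT. The small-subunit genes are close copies of each other, and how reads were divided among them is uncertain. The change of CA1, at -10.59, was larger than that of any of these 5, and the change of CA2, at -5.23, lay inside their range.

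Enzymes that take up bicarbonate moved in both directions. Of 14 bicarbonate-using carboxylases 13 were tested, with 3 higher, 5 lower, 5 not past the threshold and a median of -0.38. PPC2 (AT2G42600), a phosphoenolpyruvate carboxylase, fell to 142, 195 and 155 CPM in fusca replicates 1, 2 and 3, against 799, 680 and 780 CPM in WT replicates 1, 2 and 3. The log2 fold change was -2.20 (edgeR adjusted p = 1.7e-05), and PPC3 (AT3G14940) changed by -1.36 (edgeR adjusted p = 0.00289). ACC2 (AT1G36180), the plastid copy of the single-chain acetyl-CoA carboxylase, rose by 4.68 (edgeR adjusted p = 1.4e-06). It stood at 256, 184 and 327 CPM in fusca and 10.5, 10.9 and 8.36 CPM in WT, with GFP-HY5 at 14.6. ACC1 (AT1G36160), its near-identical neighbour, named here after its values were seen, had overlapping groups, with a log2 difference of 0.41 that was not past the threshold (edgeR adjusted p = 0.32). How reads that fit both copies were counted is not given, which limits their separate values.

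Of 13 PIP aquaporins, plasma-membrane channels of which some pass CO2, 2 were higher, 2 lower and 9 not past the threshold, with a median of -0.13. PIP1;4 (AT4G00430) changed by -1.17 (edgeR adjusted p = 0.00129), PIP2;5 (AT3G54820) by 1.15 (edgeR adjusted p = 0.0219) and PIP1;2 (AT2G45960) by 0.69 (edgeR adjusted p = 0.0359). The PIP1;2 call was lost without any single WT library, and the PIP2;5 call without WT replicate 2 or 3. Without fusca replicate 2 both stayed past the threshold with smaller log2 fold changes, 0.67 for PIP2;5 and 0.43 for PIP1;2. Of 9 genes of the stomatal CO2 response, in which CA1 and CA4 act, 1 was higher, 4 lower and 4 not past the threshold, with a median of -0.49. MPK12 (AT2G46070), a MAP kinase of guard cells, stood at 1.96, 2.47 and 2.21 CPM in fusca and 13.6, 10.6 and 11.1 CPM in WT, and changed by -2.40 (edgeR adjusted p = 1.8e-05). HT1 (AT1G62400), a kinase that restrains closure, changed by -1.94 (edgeR adjusted p = 0.00194), and CRSP (AT1G20160), a protease of the stomatal peptide EPF2, by 1.04 (edgeR adjusted p = 0.00102).

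**Figure D4:**
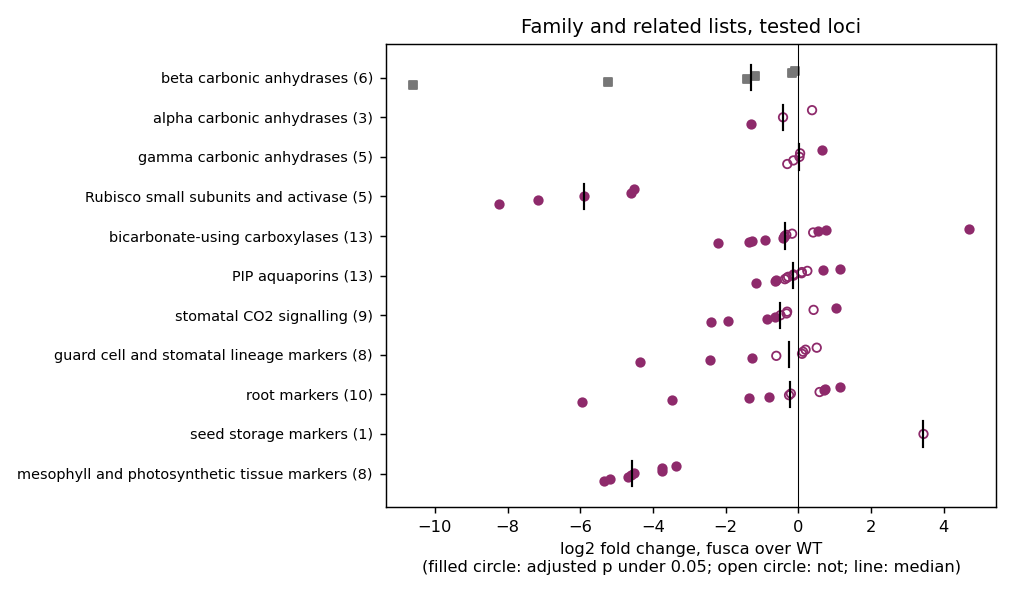
Log2 fold change in fusca over WT of every tested locus in the family and in 10 lists, with the number of tested loci in brackets; vertical lines are medians, filled circles have an adjusted p under 0.05, and grey squares are the 6 members, for which no test is shown. The Rubisco list and the photosynthetic tissue markers lie wholly below -3, and the other lists with more than 1 tested locus hold loci on both sides of 0.

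Of the cell type markers, those of photosynthetic tissue were all lower in fusca, those of guard cells in part, and those of roots moved in both directions. Their part in these results was not tested, and lower marker counts cannot tell fewer cells of a type from less RNA per cell. Of all tested loci 18.4% were past the threshold as lower and 16.7% as higher. All 8 markers of mesophyll and photosynthetic tissue were lower in fusca, 8 of 8 past the threshold, with a median log2 fold change of -4.57. Their summed level was 908 to 1979 CPM in fusca, 22967 CPM in GFP-HY5 and 22612 to 27491 CPM in WT. PSAG (AT1G55670), LHCB3 (AT5G54270) and LHCA1 (AT3G54890), photosystem proteins, changed by -5.34, -5.19 and -4.68 (largest edgeR adjusted p = 1.9e-05). Of 8 guard cell and stomatal lineage markers 3 were lower, 0 higher and 5 not past the threshold, with a median log2 fold change of -0.25. They summed to 65.5 to 73.2 CPM in fusca, 138 CPM in GFP-HY5 and 158 to 162 CPM in WT. GC1 (AT1G22690) changed by -4.35, FAMA (AT3G24140), a regulator of guard cell identity, by -2.44 and KAT1 (AT5G46240), a potassium channel, by -1.28 (largest edgeR adjusted p = 3.5e-04). GC1 made up the largest part of the guard cell sum in WT, at 73.0 to 78.3 CPM, and stood at 3.15 to 4.14 CPM in fusca. MUTE, SPCH and MYB60, named after their values were seen, were among the markers not past the threshold. Of 10 root markers 3 were higher, 4 lower and 3 not past the threshold, with a median log2 fold change of -0.23. Their summed level was 165 to 179 CPM in fusca, 385 CPM in GFP-HY5 and 453 to 713 CPM in WT. IRT1 (AT4G19690), an iron transporter, made up most of that sum in WT and changed by -5.96, while NRT2.1 (AT1G08090), a nitrate transporter, changed by -3.48 and EXPA7 (AT1G12560), an expansin of root hairs, by -1.36 (largest edgeR adjusted p = 0.00120). The 3 root markers that were higher, named after their values were seen, were MYB36 (AT5G57620) at 1.15, SHR (AT4G37650) at 0.73 and CASP1 (AT2G36100) at 0.71, regulators and a structural protein of the endodermis (largest edgeR adjusted p = 0.0149). None of the markers of these 3 tissues was at 0 in any WT library.

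Loci that share bases with a member were read for themselves, because how reads on shared bases were assigned is not known. LSF1 (AT3G01510), a protein of starch breakdown, overlaps CA1 over 343 bases. It stood at 3.51, 6.47 and 3.75 CPM in fusca replicates 1, 2 and 3, and at 27.3, 35.2 and 36.6 CPM in WT replicates 1, 2 and 3, with 33.6 CPM in GFP-HY5. Its log2 fold change was -2.86 (edgeR adjusted p = 2.1e-05), so both overlapping loci were lower in fusca but by different amounts. AOR (AT1G23740), a chloroplast oxidoreductase, overlaps CA3 over 273 bases and changed by -2.98 (edgeR adjusted p = 2.4e-06), whereas the CA3 groups overlapped. AT4G33565 and AT4G33585 overlap CA5 over 37 and 90 bases. The first was not past the threshold, at -0.12 (edgeR adjusted p = 0.679), and the second changed by -1.28 (edgeR adjusted p = 0.00831). No locus of the gene table overlaps CA2, CA4 or CA6.

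Of the 12 nearest loci that do not overlap a member, 10 were tested, with 4 higher, 1 lower and 5 not past the threshold, where 16.7% of all tested loci were higher and 18.4% lower. Beside CA1, AT3G01490 changed by 0.97 (edgeR adjusted p = 0.0145) and AT3G01513 by 0.88 (edgeR adjusted p = 0.0216), where the first call was lost without WT replicate 2 and the second with DESeq2, without any single WT library and without fusca replicate 1. Beside CA2, AT5G14730 changed by 0.78 (edgeR adjusted p = 0.0106) and WER (AT5G14750), a MYB factor of the root epidermis that the gene table calls MYB66, was at 0.58 and not past the threshold (edgeR adjusted p = 0.0820), which it passed under upper-quartile factors, at 0.73, and under library size alone, at 1.02. Beside CA4, AT1G70420 changed by 1.00 (edgeR adjusted p = 0.00467), and AT1G70400 had too few counts to test. Beside CA3, AT1G23750 changed by -0.63 (edgeR adjusted p = 0.0436), a call lost under upper-quartile factors, under library size alone, without any single WT library and without fusca replicate 1 or 3, and AT1G23720 was at -0.52 (edgeR adjusted p = 0.332), or -0.89 and -0.13 without fusca replicates 1 and 2. Beside CA5, AT4G33560 was at -0.67 (edgeR adjusted p = 0.131) and AT4G33590 was too low to test. Without fusca replicate 2 AT4G33560 was past the threshold as lower, at -1.04 (edgeR adjusted p = 0.00279), and without fusca replicate 1 it was at -0.37. Beside CA6, AT1G58170 and RLP9 (AT1G58190) were at 0.20 and 0.41 (edgeR adjusted p = 0.623 and 0.367), and RLP9 was past the threshold without fusca replicate 2, at 0.70 (edgeR adjusted p = 0.00744).

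The loci most like each member were found by the root-mean-square distance between centred profiles of log2 CPM over the 7 libraries, among 16575 tested loci with a mean of at least 5 CPM. For CA1 they were FBA5 (AT4G26530), a fructose-bisphosphate aldolase, at a distance of 0.74 and RBCS2B at 1.25. FBA5 stood at 0.337, 0.436 and 0.670 CPM in fusca and 507, 492 and 567 CPM in WT. Its fusca values rest on 5, 6 and 10 counts, and that of CA1 in fusca replicate 1 on 19. At such counts the prior count of 2 weighs on log2 CPM, which limits this likeness. For CA2 they were HCEF1 (AT3G54050), the chloroplast fructose-1,6-bisphosphatase, at 0.094 and PSAK (AT1G30380), a photosystem I subunit, at 0.10. HCEF1 changed by -5.21 on the log2 scale and PSAK by -5.42, close to the -5.23 of CA2. That closeness follows from the choice by profile. CA4 lay nearest to AT2G42750 at 0.023 and NFU5 (AT1G51390), an iron-sulfur cluster protein of mitochondria, at 0.030. CA5 lay nearest to AT3G47250 at 0.056 and PHS1 (AT3G29320), the plastid starch phosphorylase, at 0.065. CA6 lay nearest to SETH3 (AT3G54690) at 0.053 and DJ1C (AT4G34020) at 0.063, and CA3 to AT5G45460 and the transposable element AT1TE98130 at 0.16 each. CA1 had the most distant nearest loci of all members. Its log2 fold change was the second lowest of all tested loci, so few loci could lie near it. The 7 libraries fall into 3 groups, so a distance is set largely by the differences between groups.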

How the data were processed

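RNA was measured in 9 of the 29 samples; the 20 ChIP-seq samples were not analysed here. The RNA, polyadenylated and treated with DNase, was sequenced on DNBseq, per the labels' protocols. The authors deposited raw counts per locus in a table named for the sense strand; whether the kit marks strand is not stated. The submitters' processing notes name Trim Galore, STAR, deepTools and HTSeq and the build TAIR10, and the annotation and the treatment of multiply mapped reads are not given in the sources used here. The row for reads without a unique alignment is 0 in every library. The 5 summary rows were left out: reads on no feature were 48.4 to 48.9% and ambiguous reads 0.572 to 0.798% of a column.

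Identical columns were merged, filterByExpr on the libraries of fusca and WT kept 21820 loci, and fusca was tested against WT with edgeR 4.0.16 in R 4.3.3 (TMM, glmQLFit, glmQLFTest), with adjustment over all loci. The standard error is the absolute log2 fold change divided by the square root of the F statistic. For the single GFP-HY5 library, log2 CPM (prior count 2) was subtracted without a test. Wilson intervals describe counting error alone: reads lack molecular identifiers and are not independent molecules.

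The members and lists were chosen with earlier results of these data known. Named loci are all members, up to 3 loci per list with the largest change past the threshold, all loci of lists of 5 or fewer, the overlapping and nearest loci, and the 2 most like loci per member. Gene symbols, spans and neighbours came from the RefSeq table of TAIR10.1, which matched 28009 of 59999 loci and all 6 members; no coordinates are given. On simulated counts with 200 changed loci among 20746, the fusca against WT test recovered 89% of those changed 2-fold and 98% of those changed 4-fold, with 6 false among 193 calls. The simulation gave all loci the same dispersion of 0.02 and changed far fewer loci than were past the threshold in the data. Its rates therefore check the code and do not carry over to the data. Alternatives were RLE, upper-quartile and no scaling factors, factors without the 20 most abundant loci, DESeq2 1.42.0, other count filters, WT and fusca libraries alone, a replicate block, a prior count of 0.5 and leaving out each library.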

Additional observations from a re-analysis of the deposited data

How the results depend on the processing

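The members were chosen with their fusca and WT values known, so their counts and ranges here describe the fits only. In each of 15 alternative fits 4 members were past the threshold. CA1 ranged from -11.00 to -10.15, CA2 from -5.46 to -4.80, CA4 from -1.51 to -0.98 and CA5 from -1.23 to -0.73 on the log2 scale. With library size only the count of all loci past the threshold was 12774 against 7651, 79.8% of them higher against 47.6%. The median log2 change moved up by 0.45, and in fusca against GFP-HY5 CA4 and CA5 then lay short of 2-fold. With upper-quartile factors the higher share was 61.1%, the shift 0.15, and CA4 lay just short of 2-fold in fusca against GFP-HY5. Signs of loci that were not past the threshold turned. With library size only the log2 fold changes were 0.35 for CA3, 0.28 for CA6, 0.13 for gamma CA1, 0.30 for gamma CA2, 0.33 for AT4G33565, 0.33 for SETH3 and 0.30 for DJ1C. With upper-quartile factors they were 0.044 for CA3, 0.0072 for gamma CA2, 0.024 for AT4G33565 and 0.030 for SETH3. These shifts follow from the factors, which differ between fusca and WT. Leaving out single libraries gave ranges that cross 0 for CA3 (-0.35 to 0.17), gamma CA3 (-0.14 to 0.18), gamma CAL1 (-0.070 to 0.082), AT4G33565 (-0.35 to 0.045), AT1G58170 (-0.020 to 0.42), AT5G45460 (-0.24 to 0.16) and AT1TE98130 (-0.040 to 0.42), and counts of all loci from 5632 without WT replicate 2 to 10895 without fusca replicate 2. Same-numbered fusca and WT libraries did not deviate together (r of -0.045, -0.11 and -0.20 across 21820 loci, which are not independent), so no pairing by number was seen. With so few samples this cannot exclude that same-numbered samples were prepared together. With the replicate block 6774 loci and the same number of members, 4, were past the threshold, and PIP1;2, AT3G01513 and AT1G23750 were not (adjusted p = 0.0587, 0.0512 and 0.0507). Low counts limit CA3 most, with 12 to 29 counts per library.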
